A study of Mus musculus with 12 samples.

Results

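The genes described here are 35 interferon-stimulated genes, antiviral sensors and parts of the type I interferon signalling chain. They were chosen by symbol from general knowledge of the pathway, with earlier results of these data known. Counts of members set beside shares of all genes are therefore descriptions of a chosen list. All 35 were found among the 53707 genes of the count table, and all 35 had enough reads to be tested. RNA was sequenced from retinal explants, which are whole retinas kept alive in culture medium, of wild-type C57Bl/6J mice at 28 days of age (P28). Explants were cultured for 48 hours in Neurobasal-A medium with 5 mM or 25 mM glucose, and the comparison asked how gene expression differed between these concentrations. The sclera and the retinal pigment epithelium (RPE) had been removed from every explant, so both groups lacked the RPE and a blood supply. Each concentration had 3 biological replicates, each with 2 technical replicates, which makes 12 libraries. By the labels, the first technical replicates form batch 1 and the second form batch 2. The labels do not say whether the biological replicates came from separate animals or cultures, so the tests below measure the spread between these samples, which may be technical in part.

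Type I interferons bind a receptor built from the products of Ifnar1 and Ifnar2. The receptor's kinases activate a complex containing Stat2 and Irf9 that binds interferon-stimulated response elements in promoters and raises transcription of a large set of antiviral genes. Production of interferon itself is started by sensors of foreign or misplaced nucleic acid, such as the RNA helicases encoded by Ddx58 (RIG-I) and Ifih1 (MDA5) and the DNA-sensing adaptor encoded by Tmem173 (STING). In the retina, microglia are known for sensing and for responding to interferon, and neurons and other glia can respond too.

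The response element that defines the class was looked for in the promoters, and stretches that hold it are printed to show how alike it is in members that were higher and members that were lower at 25 mM glucose. Promoter windows, from 250 bases before to 50 bases after a start site, came from RefSeq for the GRCm38.p6 build and were found for 26 of the 35 members (29 windows). A pair of GAAA runs with 2 bases of any kind between them occurred on either strand in 14 of these 26 members. This pattern was found in 48.3% of the members' windows and in 3.44% of all 32851 windows of this length. Of the 14 members with a match, 10 had a log2 fold change above 0 and 4 below 0, and of the 12 without a match 6 lay on each side. In the stretches below, read 5′ to 3′ on the strand of the gene, capitals mark the matched letters.
Ifit3 (chr19:34583348-34583441, plus strand): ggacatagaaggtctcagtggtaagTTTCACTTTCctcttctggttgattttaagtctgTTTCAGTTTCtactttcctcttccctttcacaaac
Stat2 (chr10:128270251-128270310, plus strand): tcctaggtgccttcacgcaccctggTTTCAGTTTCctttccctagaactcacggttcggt
Rsad2 (chr12:26456538-26456597, minus strand): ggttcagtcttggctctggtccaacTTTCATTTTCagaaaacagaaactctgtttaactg
Bst2 (chr8:71537562-71537627, minus strand): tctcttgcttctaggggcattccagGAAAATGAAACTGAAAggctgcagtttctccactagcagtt
Isg15 (chr4:156200850-156200921, minus strand): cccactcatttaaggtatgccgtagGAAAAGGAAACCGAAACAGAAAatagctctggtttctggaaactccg
Oas1a (chr5:120907526-120907570, minus strand): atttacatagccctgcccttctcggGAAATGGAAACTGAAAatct
The first 3 genes had log2 fold changes above 0 and the last 3 below 0, at 25 mM against 5 mM glucose. They come from the 4 highest and 4 lowest members with a match, by log2 fold change. Of the lowest, Ifitm3 (-1.59, 2 matches) is not printed, because a match reached past the start site. The 94 bases printed for Ifit3 occur letter for letter before its neighbour Ifit3b, at chr19:34607744-34607837. Isg15 held 3 overlapping matches, whereas Irf7 and Irf9, which are described first below, held none in their windows. A match is a description of the letters, not a measured binding site.

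The letters TTCNNNGAA, which make up the gamma-activated site, occurred in 9 of the 26 members, 2 with a log2 fold change above 0 and 7 below 0. These letters were found in 31.0% of the members' windows and in 8.30% of all windows. In 4 windows of members both motifs occurred, and in 2 of these the matches overlapped.

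At 25 mM glucose, 5 of the 35 members were called, all of them higher than at 5 mM glucose. They were the transcription factor genes Irf7, Irf9 and Stat2, the IFIT gene Ifit3, and Mx2, an Mx group gene annotated as a polymorphic pseudogene. A gene was called at a false discovery rate (FDR) under 0.05 in the edgeR quasi-likelihood test of 3 summed biological replicates against 3, adjusted by Benjamini-Hochberg over 21061 genes. Of all genes tested, 1.98% were called, made up of 1.47% that were higher and 0.513% that were lower. At the stricter thresholds used by the study, an FDR under 0.01 together with a change of over 2-fold, 0 members and 0% of all genes were called (edgeR). The lowest FDR of any gene in this edgeR fit was 0.0217. The paper does report genes at these thresholds for this comparison, most of them higher with more glucose. Why its fit and this one differ was not tested. Unadjusted p-values were under 0.05 in 10 members that were higher and 7 that were lower (edgeR), against 13.2% and 15.5% of all genes, 28.7% together. The median log2 fold change over the members was 0.24 and over all genes -0.01, and 21 members lay above 0 and 14 below. DESeq2 called 11 members, against 16.6% of all genes: these 5, Ifit3b and Oasl2 as higher, and Tmem173, Ifitm3, Oas1a and Ifnar1 as lower. The limma-voom test called 3, Irf7, Ifit3 and Irf9, against 1.98% of all genes. In edgeR, 17 members were called without 5 mM replicate 1 (10 higher and 7 lower, against 26.6% of all genes) and 3 without 25 mM replicate 3 (2.27% of all genes). Without any other single replicate 0 members and 0% of all genes were called, with 10 to 14 members at an unadjusted p under 0.05. Without the first library of 25 mM replicate 2 alone, 0 members and 0% of all genes were again called, with 15 members at an unadjusted p under 0.05 (edgeR).

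**Figure D1:**
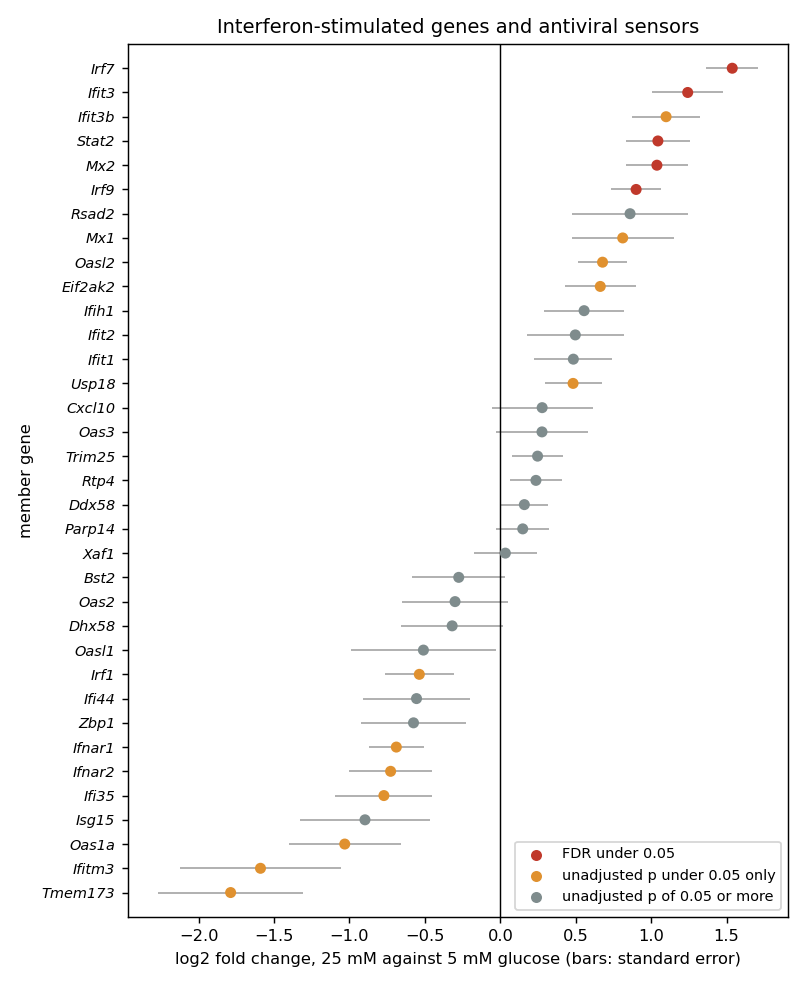
Log2 fold change of each of the 35 members at 25 mM against 5 mM glucose (x axis) with its standard error, ordered by size; colours give the edgeR test result. The members run from -1.79 for Tmem173 to 1.54 for Irf7, and the 5 with an FDR under 0.05 all lie above 0.

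Levels are given as CPM, gene counts relative to the library total after scaling by the trimmed mean of M-values, for biological replicates 1, 2 and 3 in turn. In these bulk samples, fewer cells of a type and less RNA per cell cannot be told apart. Per kilobase of the longest transcript, Ifitm3 (185 CPM per kb, mean of all 6 replicates) and Ifit3 (179) had the highest levels, followed by Ifit1 (52.7), Ifit3b (47.8) and Oasl2 (39.3), and Oas3 (0.256) had the lowest.

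Of the transcription factor genes, 3 of 4 were called. Irf7 encodes the factor that amplifies interferon production, and it had the largest log2 fold change of any member. Its level was 19.9, 17.7 and 16.2 CPM at 5 mM and 55.7, 51.2 and 49.3 CPM at 25 mM glucose. The groups were far apart, with a fold of 2.90, a log2 fold change of 1.54 (standard error 0.17) and an FDR of 0.0217 in the edgeR test. Irf7 lies on chromosome 7, 141262706 to 141266481 (GRCm38), and its exons overlap those of Phrf1 on the opposite strand. The sources do not say if reads were assigned by strand, and Phrf1 had a log2 fold change of -0.33.

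Irf9, which gives the complex its DNA contact, measured 81.8, 72.8 and 75.2 CPM at 5 mM and 161.5, 144.4 and 123.1 CPM at 25 mM glucose. All 3 high-glucose replicates lay above the others, with a log2 fold change of 0.90 (standard error 0.16, edgeR FDR 0.0426). Irf9 (chromosome 14, 55603571 to 55610030) overlaps the end of Rnf31 on the same strand, a gene whose log2 fold change was 0.01. Stat2, which carries the activating part of the complex, measured 52.2, 66.1 and 61.8 CPM at 5 mM and 157.6, 114.8 and 99.1 CPM at 25 mM glucose. Its groups did not overlap either, and its log2 fold change of 1.04 (standard error 0.21) had an edgeR FDR of 0.0498, just inside the threshold. Irf1, a factor induced by both interferon types, lay on the other side with a log2 fold change of -0.54 and an edgeR FDR of 0.164.

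Both receptor genes had lower values at 25 mM glucose, opposite in sign to Irf7, Irf9 and Stat2 and the same in sign as Irf1. Neither was called in edgeR, and both had an unadjusted p under 0.05. Ifnar1 measured 133, 106 and 126 CPM at 5 mM and 62.4, 87.2 and 76.9 CPM at 25 mM glucose. Every high-glucose replicate was below every low-glucose replicate, with a log2 fold change of -0.69 (standard error 0.18, edgeR FDR 0.0732). Ifnar2 also had replicates that did not overlap, from 42.1 to 51.3 CPM in low and from 17.2 to 35.0 CPM in high glucose, with a log2 fold change of -0.73 and an edgeR FDR of 0.133. Of the 101-base windows of Ifnar2, 101 being the read length, 6.28% also occur in another gene.

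In the IFIT family of interferon-stimulated genes, log2 fold changes were positive in 4 of 4 genes, with 1 called. Ifit3 measured 241, 152 and 164 CPM at 5 mM and 399, 534 and 387 CPM at 25 mM glucose. The lowest value at 25 mM was above the highest at 5 mM, and the log2 fold change was 1.24 (standard error 0.24, edgeR FDR 0.0456). Its neighbour Ifit3b measured 74.3, 46.1 and 62.0 CPM at 5 mM and 114, 158 and 118 CPM at 25 mM glucose, again without overlap. The log2 fold change of Ifit3b was 1.10 and its edgeR FDR 0.0516, just outside the threshold. Ifit3 and Ifit3b, side by side on chromosome 19, were 98.0% identical over the aligned bases of their longest transcripts, and 31.3% of the 101-base windows of Ifit3 also occur in Ifit3b. Their separate values are therefore uncertain.

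Ifit1 and Ifit2 showed more spread. Ifit1 measured 156, 91.6 and 103 CPM at 5 mM and 142, 211 and 137 CPM at 25 mM glucose, with a log2 fold change of 0.48 and an edgeR FDR of 0.248. Ifit2 measured 97.5, 43.1 and 58.1 CPM at 5 mM and 71.0, 121 and 88.7 CPM at 25 mM glucose, with 0.50 and an edgeR FDR of 0.326. In both genes 5 mM replicate 1 was above the lowest replicate at 25 mM.

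**Figure D2:**
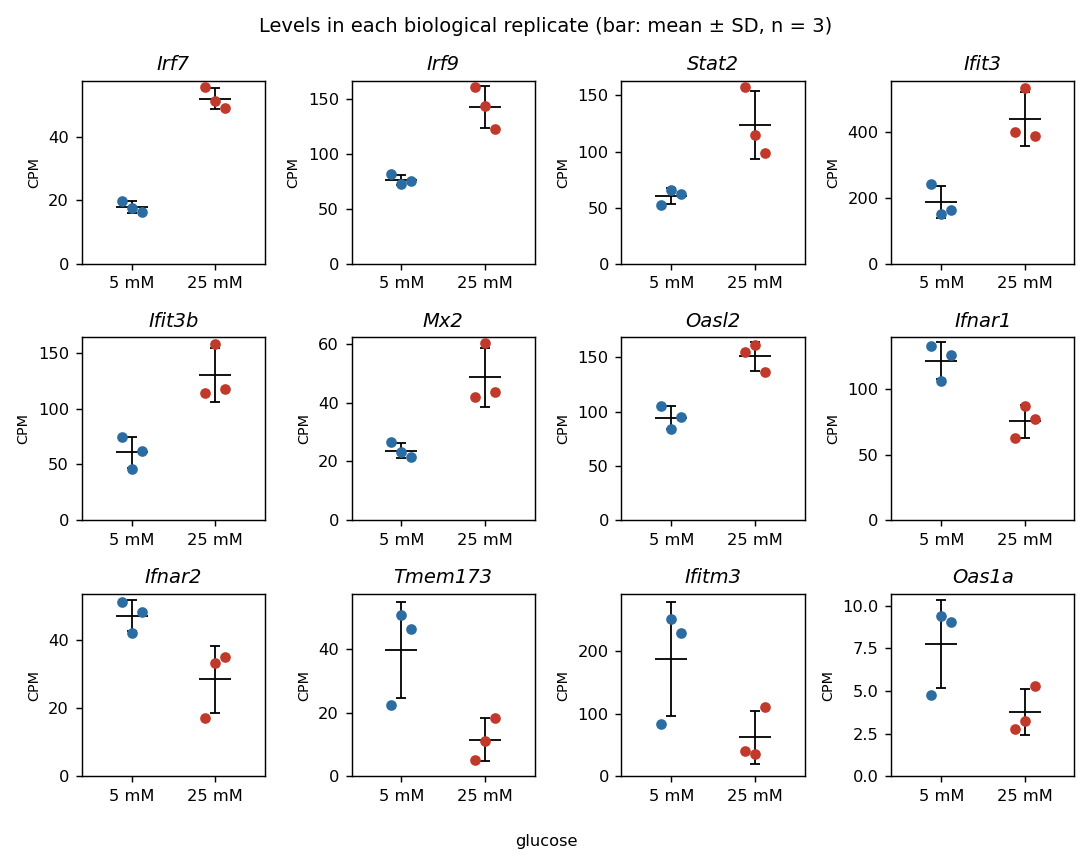
CPM of 12 members in each biological replicate (points) at 5 mM and 25 mM glucose, with mean and SD (n = 3), each on an axis from 0. Irf7, Irf9, Stat2, Ifit3, Ifit3b, Mx2 and Oasl2 are higher at 25 mM in every replicate, Ifnar1, Ifnar2 and Tmem173 are lower in every replicate, and Ifitm3 and Oas1a overlap through 5 mM replicate 1.

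Among the genes of the Mx group and Rsad2, 1 of 3 was called. Mx2, of the Mx GTPase group, measured 26.4, 23.1 and 21.4 CPM at 5 mM and 41.9, 60.2 and 43.5 CPM at 25 mM glucose. The groups did not overlap, and the log2 fold change was 1.04 (standard error 0.21, edgeR FDR 0.0482). The annotation (GENCODE M21) lists Mx2 as a polymorphic pseudogene on chromosome 16, 97535308 to 97560900. With 0% of its counts on transcripts annotated as protein coding, its RNA level does not stand for a working protein. Rsad2 encodes viperin, which makes a chain-terminating nucleotide, and it had the widest spread of these genes. It measured 51.2, 52.9 and 66.4 CPM at 5 mM and 44.9, 152 and 112 CPM at 25 mM glucose, so 25 mM replicate 1 lay below all 5 mM replicates (log2 fold change 0.86, edgeR FDR 0.183). Mx1 was low, between 3.51 and 9.63 CPM in all replicates, with a log2 fold change of 0.81 and an edgeR FDR of 0.161. Of its counts, 73.5% were assigned to transcripts marked for nonsense-mediated decay and 23.8% to coding transcripts, and with coding transcripts alone its log2 fold change was 2.38 (edgeR FDR 0.0956).

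The OAS family, whose enzymes make oligoadenylates that activate RNase L and whose like proteins bind RNA sensors, went both ways, with 0 of 5 called and 2 of 5 at an unadjusted p under 0.05 in edgeR. Oasl2 measured 105, 83.8 and 94.7 CPM at 5 mM and 155, 162 and 136 CPM at 25 mM glucose. Its groups did not overlap, and its log2 fold change was 0.68 (standard error 0.16, edgeR FDR 0.0644). Oas1a lay on the opposite side, at 4.79, 9.41 and 9.04 CPM at 5 mM and 2.78, 3.26 and 5.31 CPM at 25 mM glucose (log2 fold change -1.03, edgeR FDR 0.121). Of the 101-base windows of Oas1a, 40.6% also occur in Oas1g, so its value is uncertain. Oas2, Oas3 and Oasl1 stayed between 0.837 and 4.84 CPM, with log2 fold changes from -0.51 to 0.28.

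Of the 6 nucleic acid sensors, 0 were called and 2 had an unadjusted p under 0.05 in edgeR, in opposite directions. Tmem173, the DNA-sensing adaptor STING, had the lowest log2 fold change of the 35 members. It measured 22.6, 50.7 and 46.2 CPM at 5 mM and 5.05, 11.0 and 18.5 CPM at 25 mM glucose, without overlap. The log2 fold change was -1.79 (standard error 0.48) with an edgeR FDR of 0.0736, and with each replicate left out in turn the FDR ran from 0.0176 without 5 mM replicate 1 to 0.228 without 25 mM replicate 2. Eif2ak2, which encodes the RNA-activated kinase PKR, measured 106, 61.8 and 72.0 CPM at 5 mM and 128, 147 and 105 CPM at 25 mM glucose. The 5 mM replicate 1 just exceeded the lowest high-glucose value, and the log2 fold change of 0.66 had an edgeR FDR of 0.119.

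The RNA helicase Ddx58 (RIG-I) measured 84.8, 79.6 and 90.9 CPM at 5 mM and 91.3, 108 and 85.6 CPM at 25 mM glucose, with groups that overlapped and a log2 fold change of 0.16 (edgeR FDR 0.524). Its relatives Ifih1 (MDA5) and Dhx58 (LGP2) had log2 fold changes of 0.56 and -0.32, and Zbp1, a sensor of Z-form nucleic acid, had -0.58, with edgeR FDR values from 0.207 to 0.544.

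Of the ISG15 system, 0 of 3 were called, with 1 unadjusted p under 0.05 in edgeR. Isg15, a ubiquitin-like protein that is joined to other proteins, had the values 6.38, 16.6 and 15.5 CPM at 5 mM and 5.33, 5.09 and 10.2 CPM at 25 mM glucose. Its groups overlapped through 5 mM replicate 1, and its log2 fold change was -0.90 (edgeR FDR 0.207). Usp18, the protease that removes Isg15 and restrains the receptor, and Trim25, a ligase for both ubiquitin and Isg15, lay above 0 at 0.48 and 0.25, and in both the replicates did not overlap. Usp18 measured 23.3 to 31.4 CPM in low glucose against 34.7 to 42.3 CPM in high glucose (edgeR FDR 0.143). Trim25 was barely apart, at 63.2 to 88.2 CPM in low against 88.6 to 92.9 CPM in high glucose (edgeR FDR 0.355).

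The membrane restriction factors had 0 of 2 called and 1 (Ifitm3) at an unadjusted p under 0.05 in edgeR. Ifitm3, which blocks the fusion of viruses with endosomes, measured 83.5, 252 and 229 CPM at 5 mM and 40.5, 35.3 and 111 CPM at 25 mM glucose. Its log2 fold change of -1.59 had a standard error of 0.53 and an edgeR FDR of 0.106, and the groups overlapped because 25 mM replicate 3 exceeded 5 mM replicate 1. Bst2 (tetherin), which holds budding viruses at the cell surface, measured 15.8, 30.5 and 29.1 CPM at 5 mM and 17.7, 17.0 and 27.5 CPM at 25 mM glucose, with a log2 fold change of -0.28 (edgeR FDR 0.568). The chemokine Cxcl10, an attractant of T cells, had a log2 fold change of 0.28 with replicates between 12.7 and 29.2 CPM (edgeR FDR 0.598). The other induced genes, Rtp4, Parp14, Xaf1, Ifi44 and Ifi35, ran from 0.24 to -0.77, with 0 of 5 called and 1 (Ifi35) at an unadjusted p under 0.05 in edgeR.

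Replicates did not overlap between concentrations in 12 of the 35 members, 9 higher and 3 lower at 25 mM glucose, against 31.8% of all genes (16% higher and 15.8% lower). The library pair of 5 mM replicate 1 often lay nearest to the high-glucose values. In 11 of the 14 members with a log2 fold change below 0, 5 mM replicate 1 was the lowest of its group, and in 13 of the 21 above 0 it was the highest. The same was true of 61.2% of all genes below 0 and 60.1% of all genes above 0. Without that replicate, 25 members had no overlap, against 62.8% of all genes.

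Other genes of interferon signalling and response were read from a list of 85, of which 82 were tested and 2 were called, both higher. That is 2.44% of those tested, close to the 1.98% of all genes called. Among them was Tdrd7, an interferon-induced inhibitor of autophagy. Tdrd7 measured 95.8, 91.1 and 99.1 CPM at 5 mM and 210, 172 and 158 CPM at 25 mM glucose, a log2 fold change of 0.92 (standard error 0.17, edgeR FDR 0.0425), and its groups did not overlap. Unadjusted p-values were under 0.05 in 13 higher and 16 lower genes of the list (edgeR), 35.4% together, against 28.7% of all genes. Its median log2 fold change was -0.30. Replicates did not overlap in 28 of its genes, 15 higher and 13 lower. This is 34.1% of those tested, near the 31.8% of all genes.

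At the upper end of the list stood Ddx60 (1.16), a helicase that aids RNA sensing, Nlrc5 (1.06), a regulator of MHC class I genes, and Oas1b (1.04). Oas1b is annotated as a polymorphic pseudogene, as Mx2 is. The edgeR FDR values of these genes ran from 0.0637 to 0.0732. At the lower end stood Ifitm1 (-2.38) and Ifitm2 (-1.82), relatives of Ifitm3, with Trex1 (-1.59), a nuclease that degrades cytosolic DNA, and Lgals9 (-1.43), a lectin. Their edgeR FDR values were 0.0645, 0.0610, 0.240 and 0.0903. The interferon genes on this list had low or no counts, with 16 to 41 counts of Ifnb1 in a replicate. Ifnb1, chosen for print after its values were seen because it encodes interferon beta, lay from 0.362 to 0.745 CPM in low glucose and from 0.394 to 0.927 CPM in high glucose, and Ifng was at 0 in all 6 replicates. A count of 0 allows up to 3 counts, which is 0.0791 CPM in the replicate with the lowest total.

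The members differed between the batches. In batch 1 their median log2 fold change was -0.23, and 9 were called, 3 higher (Irf7, Irf9 and Stat2) and 6 lower (Tmem173, Ifitm3, Ifnar2, Ifi44, Ifnar1 and Ifi35), against 17.3% of all genes called (7.16% higher and 10.1% lower). In batch 2 the median was 0.63 and 0 members were called, as were 0% of all genes, while 14 members, all higher, had an unadjusted p under 0.05 in edgeR and no overlap between groups, against 8.23% of all genes that were higher without overlap. The batches hold technical replicates of the same biological replicates and are not independent. Of the 35 members, 14 were above 0 in both batches, 10 below 0 in both and 11 of opposite sign.

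The 5 called members were above 0 in both batches. Irf7 had log2 fold changes of 1.66 and 1.50, Ifit3 1.10 and 1.40, Stat2 1.42 and 0.82, Irf9 1.01 and 0.89, and Mx2 0.77 and 1.28, in batches 1 and 2. The receptor genes differed more, with -1.38 and 0.12 for Ifnar1 and -1.42 and -0.13 for Ifnar2. Rsad2 had -0.29 in batch 1 and 1.48 in batch 2, Ddx58 had -0.22 and 0.65, and Tmem173 had -3.06 and -0.77. Whether the values of a member differed between batches was not tested. By library, Irf7 lay from 13.0 to 17.3 CPM in low and from 30.6 to 79.7 CPM in high glucose in batch 1, and from 16.9 to 23.6 CPM and from 35.4 to 83.8 CPM in batch 2, without overlap in either. Stat2 lay from 42.1 to 59.9 CPM and from 87.2 to 213.6 CPM in batch 1, and from 63.2 to 83.8 CPM and from 58.4 to 209.4 CPM in batch 2, where the groups overlapped.

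**Figure D3:**
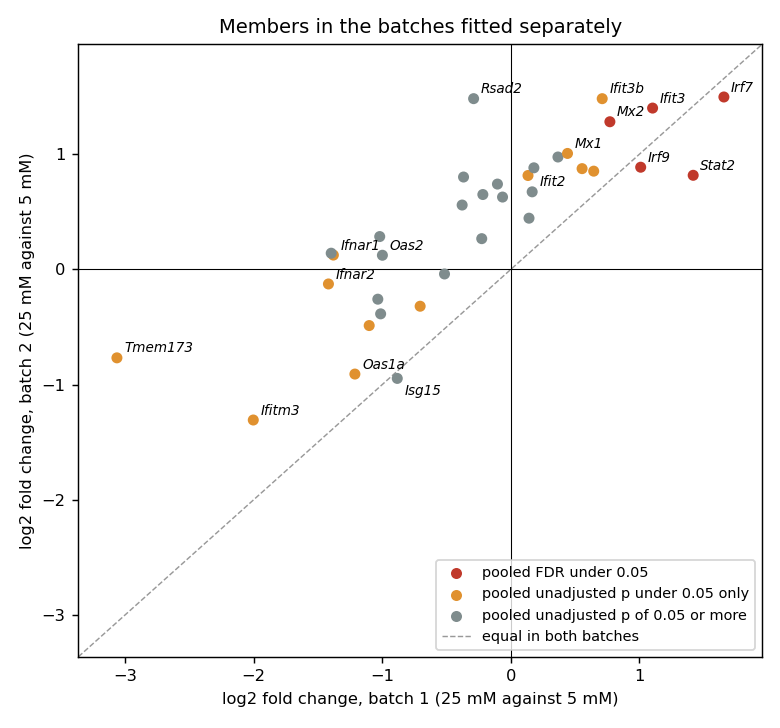
Log2 fold change of each member at 25 mM against 5 mM glucose in batch 1 (x axis) and batch 2 (y axis), each fitted alone, coloured by the test on both batches together. Irf7, Ifit3, Stat2, Irf9 and Mx2 lie at the upper right, 11 members lie in the upper left with opposite signs, and Tmem173 (-3.06 and -0.77) and Ifitm3 at the lower left.

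Transcripts annotated with a retained intron were assigned a large part of the counts of some members. The libraries were of total RNA, and whether these counts came from finished transcripts was not tested. Coding transcripts, among which the polymorphic pseudogene transcripts of Mx2 were counted, and those annotated with a retained intron were compared in the 18 members with at least 60 counts of each kind. The log2 ratio of retained to coding counts was higher at 25 mM glucose in 13 of the 18, with a median difference of 0.33. Over 7050 genes with both kinds the ratio was higher in 84.3%, with a median of 0.53. It was higher without overlap in 5 members (Eif2ak2, Irf7, Ifnar1, Ifi44 and Irf9) and lower without overlap in 0, against 33.6% and 1.04% of all these genes.

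In Irf7 the retained share of coding and retained counts was 63.4%, 37.6% and 36.6% at 5 mM and 72.6%, 77.2% and 65.4% at 25 mM glucose. Its coding transcripts measured 4.45, 13.0 and 10.9 CPM at 5 mM and 11.8, 7.39 and 13.7 CPM at 25 mM glucose, and these groups overlapped. The retained-intron transcripts measured 7.69, 7.81 and 6.31 CPM at 5 mM and 31.3, 25.1 and 25.9 CPM at 25 mM glucose, without overlap. With coding transcripts alone, a setting added after the data were seen, the log2 fold change of Irf7 was 0.39 with an edgeR FDR of 0.547, so the call on Irf7 is lost in that setting.

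With coding transcripts alone the log2 fold changes of the other called members were 1.41 for Ifit3, 1.22 for Stat2 and 1.06 for Irf9. For Mx2 the value was 1.12, from transcripts of the polymorphic pseudogene class (93.3% of its counts), since 0% of its counts were on transcripts annotated as protein coding. The edgeR FDR values of these 4 genes were between 0.0551 and 0.0861, and 0 members were called, with 15 at an unadjusted p under 0.05 (edgeR), against 0.348% of all genes called. For Irf9 the retained share was 15.3%, 14.9% and 15.0% at 5 mM and 18.3%, 19.2% and 16.5% at 25 mM glucose. In Ifnar1 the kinds differed in opposite directions, each without overlap. Its coding transcripts measured 87.3, 113 and 116 CPM at 5 mM and 47.1, 55.9 and 66.9 CPM at 25 mM, and its retained-intron transcripts 4.92, 3.56 and 4.52 CPM and 6.84, 7.32 and 5.75 CPM. In Eif2ak2 the retained share was 0.743% to 1.11% in low glucose and 2.53% to 3.24% in high glucose.

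The ratio differences for Irf7 were 2.00 in batch 1 and 1.35 in batch 2, and for Irf9 0.63 and -0.01. For Eif2ak2 they were 2.09 and 1.00, for Ifnar1 2.29 and 0.78, and for Ifi44 1.30 and 0.24. All 5 were larger in batch 1.

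**Figure D4:**
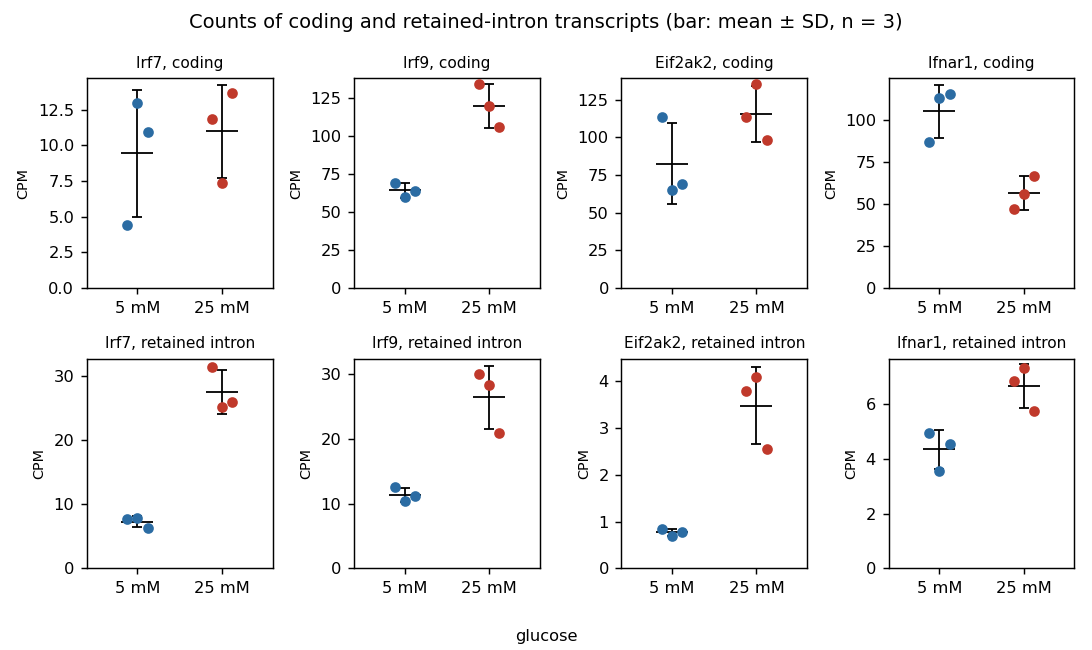
CPM of coding transcripts (upper row) and of retained-intron transcripts (lower row) of 4 members in each biological replicate at 5 mM and 25 mM glucose, with mean and SD (n = 3), each on an axis from 0. Irf7 differs between groups in its retained-intron transcripts and overlaps in its coding transcripts, whereas Irf9 is higher in both kinds.

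Markers of retinal cell types also differed between the groups. Of 17 microglial markers, 17 were lower at 25 mM glucose on average, 12 at an unadjusted p under 0.05 and 0 called (edgeR), with a median log2 fold change of -1.15. Their summed level was 512 to 773 CPM at 5 mM and 191 to 441 CPM at 25 mM glucose. Of 14 vascular markers, 12 were lower at an unadjusted p under 0.05 and 0 called (edgeR), with summed levels of 1671 to 2841 CPM at 5 mM and 708 to 1449 CPM at 25 mM. Of 16 rod markers, 7 were called, all higher (edgeR), with sums of 4284 to 7190 CPM and 9050 to 11844 CPM. Over all genes tested, 1.47% were called as higher, and 15.5% were lower at an unadjusted p under 0.05 (edgeR). None of these microglial, vascular or rod markers was at 0 in a group. The 35 members summed to 1714 to 1842 CPM at 5 mM and 2107 to 2636 CPM at 25 mM glucose, and 60.04% of the difference in means came from Ifit3 and Ifit3b. By library the members' sums overlapped in batch 1, at 1631 to 2089 CPM in low and 1627 to 2824 CPM in high glucose, and did not overlap in batch 2, at 1375 to 1814 CPM and 2593 to 2720 CPM.

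Of 10 Mueller glial markers, 0 were called and 5 had an unadjusted p under 0.05 (edgeR), 1 higher and 4 lower. Log2 fold changes were above 0 in 3 and below 0 in 7. Their summed level was 3221 to 4381 CPM at 5 mM and 2078 to 3024 CPM at 25 mM glucose, without overlap. Vim alone measured 1264 to 2209 CPM at 5 mM and 472 to 925 CPM at 25 mM. Of 10 RPE markers, 7 were tested, 0 called and 2 had an unadjusted p under 0.05 (edgeR), 1 higher and 1 lower. Of all genes tested, 28.7% had an unadjusted p under 0.05 (edgeR). RPE markers summed to 5.50 to 9.11 CPM over all replicates, with a mean of 0.0267 CPM for Rpe65 at 5 mM. Of 9 lymphocyte and neutrophil markers, 3 were tested, 0 called and 3 had an unadjusted p under 0.05 (edgeR), 1 higher and 2 lower. Ly6g and Nkg7 had at most 1 count in any replicate, so their 0 at 25 mM shows no difference between the groups. The part of these cell type differences in the values of the members was not tested.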

How the data were processed

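Total RNA libraries were made with a stranded kit for low inputs and sequenced as read pairs of 101 bases. The authors deposited an estimated count (expected count) for each gene and transcript, which divides reads that fit several transcripts, with no scaling between libraries and technical replicates apart. GRCm38 is the build in the submitters' processing notes, and the counting tool, annotation and strand setting are not given in the sources used here. Because the values are expected counts and not the counts assumed in the design, they were rounded after technical replicates were summed. Symbols and positions came from GENCODE M21, and 0 columns were unused.

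Library totals were 17998905 to 36692484 at 5 mM and 14815285 to 23129541 at 25 mM glucose, and cover counting error only. The biological coefficient of variation was 0.297. Counts were tested with edgeR 4.0.16 (TMM, filterByExpr, quasi-likelihood test as in its version 3, no block, Benjamini-Hochberg) under R 4.3.3, after a test on simulated data. An exact permutation test of 3 against 3 cannot go below 0.1. Log2 ratios of retained-intron to coding counts used a pseudocount of 0.5. Python 3.11.15 with pandas 2.3.3, Biopython 1.88 and matplotlib 3.10.9 made tables, alignments and plots.

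The members and lists were chosen with earlier results of these data known. Values per replicate are printed for members that were called, the 12 highest per length, the 4 highest and 4 lowest by log2 fold change, and near-identical copies. Alternatives were RLE factors, library totals, DESeq2 1.42.0, limma-voom 3.58.1, other filters, each batch, a replicate block, summed transcripts and each replicate left out. Added after seeing the data were 2 libraries left out and coding transcripts alone. CUT&Tag and deoxyglucose samples were not analysed here. The result of 1 gene is not reported here.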

Additional observations from a re-analysis of the deposited data

Results flagged for a closer look

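Each member's 6 libraries at a concentration were checked for a library far from the others, 70 groups in all, of which chance alone gives about 1 in 20, or 3.5. The 6 libraries are 3 pairs of technical replicates and are not independent. There were 3 such libraries. Bst2 was at 33.4 CPM in the second technical replicate of 25 mM replicate 3, and between 15.9 and 20.3 CPM in the other 5 libraries. Ifitm3 was at 152.9 CPM in the same library and between 13.4 and 63.4 CPM in the others. Oas3 was at 1.81 CPM in the first technical replicate of 5 mM replicate 3 and between 0.827 and 1.15 CPM in the others.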

How the results depend on the processing

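Members called numbered 5, and other settings gave 11 with DESeq2 (7 higher and 4 lower, against 16.6% of all genes), 3 with limma-voom (1.98%), 8 without a filter on low counts (5.63%), 9 in batch 1 alone (17.3%), 0 in batch 2 alone and 0 without the first technical replicate of 25 mM replicate 2 (0% of all genes in both), 0 with coding transcripts alone (0.348%) and 0 at the study's stricter thresholds (0%). Leaving out each biological replicate in turn gave 0 to 17 members called, against 0% to 26.6% of all genes. Pathway genes called numbered 2, against 4 with library totals, 20 with DESeq2 and 14 without a filter. There were 30 in batch 1 and 0 in batch 2. Without the second technical replicate of 5 mM replicate 1 there were 11, and without the first of 25 mM replicate 2 there were 0. With coding transcripts alone and at the stricter thresholds 0 were called, and 0 to 29 with a replicate left out. Of all genes, 459 of 21061 were called with library totals. Without the second technical replicate of 5 mM replicate 1, 1731 of 20940 were called. With a replicate block, 4 members were called (3 higher and 1 lower, Tmem173 at an FDR of 0.0238, edgeR) and 6 pathway genes, against 4.7% of all genes. The replicate numbers were not shown to pair the samples, since the deviations of same-numbered samples correlated at -0.01, -0.45 and 0.28 and 1 of 6 samples correlated best with its own number. The members' median log2 fold change of 0.24 was -0.23 in batch 1 and 0.63 in batch 2, and 0.11 to 0.26 with a replicate left out. The members without overlap between groups numbered 12, and 12 to 25 with a replicate left out. Of the 35 members, 11 had opposite signs in the batches: Cxcl10, Ddx58 (-0.22), Parp14, Rsad2 (-0.29), Rtp4, Trim25 and Xaf1 were reversed in batch 1, and Dhx58, Ifi44, Ifnar1 (0.12) and Oas2 in batch 2. The cause of these differences was not tested. The spread between 3 replicates was a larger error than depth: the lowest count of a member in a replicate was 37 (Oas3). Technical replicates of a sample could also differ widely, which the summed values do not show. The rod markers of 25 mM replicate 2 summed to 14219 CPM in the first technical replicate and 6174 CPM in the second. In 5 mM replicate 1 these sums were close, at 4211 and 4289 CPM.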
